A study of Homo sapiens with 9 samples.

Results

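The unfolded protein response and the integrated stress response were followed through 35 genes, a list of symbols whose rule uses no measured value, although it was drawn up with earlier results of these data known. All 35 were measured, out of 18132 genes on the arrays, and where a gene had several probe sets the one with the highest average value was read. They comprise 12 genes of the ATF4 arm, 4 sensors and regulators of the endoplasmic reticulum (ER), 15 ER folding genes and 4 genes of ER-associated degradation (ERAD). RNA came from the human breast cancer line MDA-MB231, an established line of mesenchymal character, and was profiled on Affymetrix PrimeView arrays. For 24 h, 3 cultures received 3 µM PD325901, an inhibitor of MEK, the kinase that activates ERK, and 2 received 10 µM BB94 (batimastat), a broad metalloproteinase inhibitor. The other 4 cultures, the controls, received 0.1% DMSO vehicle, and all 9 were grown in the same serum-containing medium. One cell line, 1 dose of each inhibitor and 1 time point limit what the groups can represent. Both inhibitors came from DMSO stock, and the labels do not say how much DMSO the inhibitor cultures then held.

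Proteins that enter the ER are folded there by chaperones such as HSPA5 (BiP), and unfolded protein in the ER activates the sensors ERN1 (IRE1), EIF2AK3 (PERK) and ATF6. IRE1 splices XBP1 mRNA and ATF6 is cut in the Golgi, and the 2 resulting transcription factors switch on chaperone and ERAD genes. PERK, like other eIF2 kinases that sense amino acid shortage or haem shortage, phosphorylates eIF2, which lowers translation in general and raises that of ATF4, a factor that drives amino acid transport and synthesis genes. ATF4 and XBP1 are therefore controlled in large part after transcription, and the arrays measured RNA only.

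The line and the drug were checked first. VIM, CD44 and AXL lay above background on all 9 arrays, and the hormone receptor ESR1 and the leukocyte gene PTPRC lay above it on 0. All 10 genes of a list of ERK targets fell under PD325901 and 0 of 10 were called under BB94. SPRY4, an inhibitor of receptor signalling, averaged 5.78 ± 0.97 in PD325901 cultures (SD, n = 3), 11.11 ± 0.12 in BB94 cultures (n = 2) and 11.21 ± 0.09 in control cultures (n = 4). DUSP6, an ERK phosphatase, averaged 9.35 ± 1.54 in PD325901 cultures against 13.36 ± 0.12 in control cultures, and ETV5 averaged 8.41 ± 0.95 against 12.76 ± 0.06. All values are log2 probe set summaries, so a difference of 1 is a factor of 2. The difference between the 3' and 5' probe sets of ACTB, a sign of RNA integrity, was 3.50 to 4.15 in PD325901 arrays, 3.91 and 4.22 in BB94 arrays and 2.96 to 3.89 in control arrays. Its part in the results was not tested.

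PD325901 gave calls in every arm. By limma, 12 of the 35 genes (34.3%) were called at an adjusted p under 0.05, where 35.1% of all genes were called in that comparison, so the share of the list is near the background. Its directions were 4 higher (11.4%, against 22.8% of all genes) and 8 lower (22.9%, against 12.3% of all genes). All 3 PD325901 arrays lay below all 4 control arrays for 15 of the 35, against 14.8% of all genes, and above them for 4 of the 35, against 25.6% of all genes. The median log2 change was -0.11 over the 35 genes and 0.08 over all genes. BB94 called 0 of the 35, where 1.58% of all genes were called (0.491% higher and 1.09% lower). An unadjusted p under 0.05 was found for 3 of the 35 and for 1968 of all 18132 genes. That share of the list is near that of all genes. Signal was adequate for most: 31 genes lay above background on all 9 arrays, XBP1 did so on part of the PD325901 arrays, and DDIT3, CHAC1 and ERN1 lay below it on all 9.

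**Figure D1:**
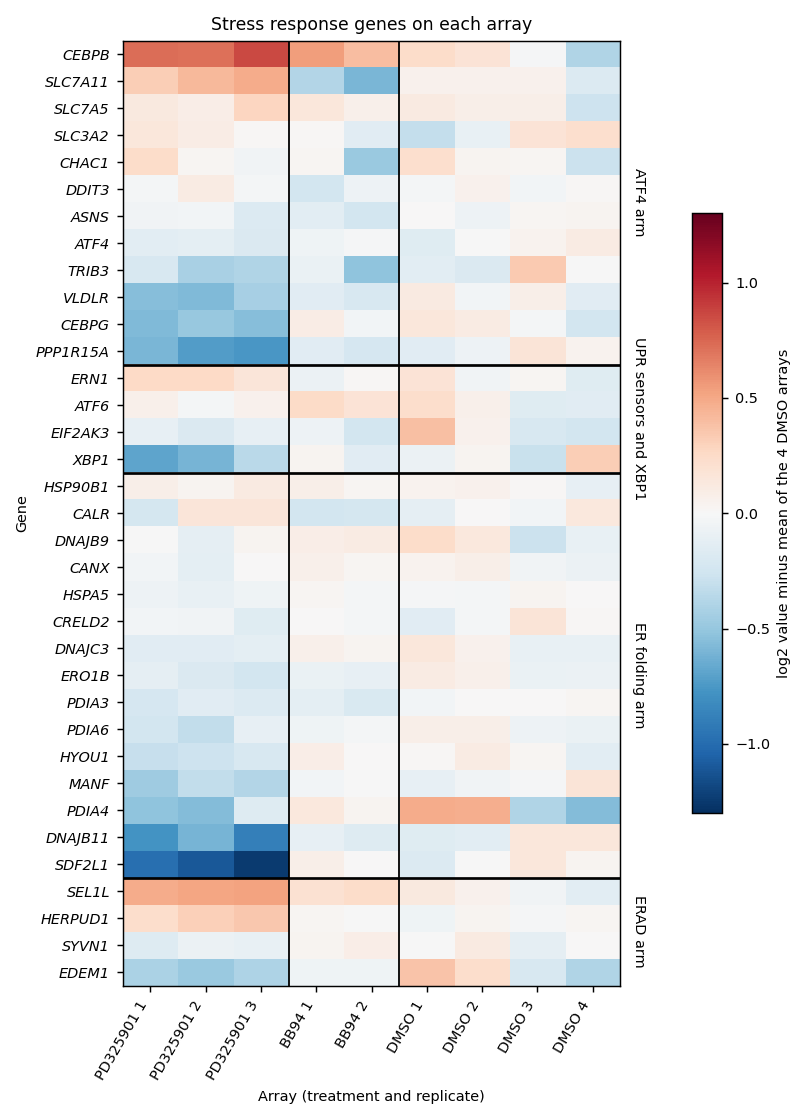
Each row is 1 of the 35 genes, grouped by arm, and each column 1 array, with PD325901 on the left, BB94 in the middle and DMSO controls on the right. Colour gives the log2 value minus the mean of the 4 control arrays; SDF2L1, DNAJB11 and PPP1R15A are low on all 3 PD325901 arrays, CEBPB and SEL1L high, and PDIA4 and EDEM1 differ within the controls.

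The ER folding genes gave 0 higher and 4 lower calls of 15 under PD325901 (26.7% called, against 35.1% of all genes), and their median change was -0.18. After each array was centred on its median over genes, 12 of the 15 were called lower, where 28% of all genes were. SDF2L1, a partner of BiP in the ER lumen, had log2 values of 8.28, 8.17 and 8.02 on the PD325901 arrays, 9.34 and 9.27 on the BB94 arrays and 9.09, 9.26, 9.41 and 9.30 on the control arrays. Its PD325901 arrays lay below all 6 others, and it fell 2.16-fold, the largest change under PD325901 among the 35 genes (log2 change -1.11, SE 0.10, adjusted p = 8.8e-06). DNAJB11 (ERdj3), a co-chaperone that hands clients to BiP, read 9.97, 10.15 and 9.86 under PD325901, 10.64 and 10.58 under BB94 and 10.59, 10.61, 10.90 and 10.89 in controls. The PD325901 arrays did not overlap the others, and DNAJB11 fell 1.69-fold (log2 change -0.75, SE 0.11, adjusted p = 3e-04). In RNA from whole cultures, fewer expressing cells and less RNA per cell cannot be told apart.

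MANF, a secreted and ER-resident factor induced by ER stress, fell less, by 1.31-fold (log2 change -0.39, SE 0.09, adjusted p = 0.00466). Its values were 12.84, 12.97 and 12.92 on PD325901 arrays, 13.26 and 13.29 on BB94 arrays and 13.19, 13.25, 13.28 and 13.46 on control arrays, again with no overlap of PD325901 with the others. HYOU1 (GRP170), a nucleotide exchange factor for BiP, read 11.82, 11.85 and 11.91 under PD325901, 12.21 and 12.14 under BB94 and 12.14, 12.23, 12.15 and 11.99 in controls. It fell 1.20-fold (log2 change -0.26, SE 0.08, adjusted p = 0.0278). That call rested on single arrays: the adjusted p was 0.0839 without control replicate 2, 0.0584 without control replicate 3, and 0.102, 0.0911 and 0.0523 without PD325901 replicates 1, 2 and 3. Of the other 8 HYOU1 probe sets, 4 were lower by the test over all probe sets and 0 higher.

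On the deposited scale HSPA5, HSP90B1, CANX and CALR were not called. After median centring HSPA5 (adjusted p = 0.00842) and CANX (adjusted p = 0.0215) were called lower, where 28% of all genes were. HSPA5 read 12.98, 12.95 and 12.99 under PD325901, 13.07 and 13.01 under BB94 and 13.03, 13.02, 13.07 and 13.05 in controls. Its 3 PD325901 arrays lay below the other 6 by a margin of a few hundredths, and the change was -0.07 on the log2 scale (95% interval -0.22 to 0.08, adjusted p = 0.49). HSP90B1 (GRP94), the ER paralogue of HSP90, changed by 0.07 (interval -0.09 to 0.24), and the lectin chaperone CANX (calnexin) by -0.05 (interval -0.23 to 0.12). CALR (calreticulin), the soluble counterpart of calnexin, changed by 0.03 (interval -0.21 to 0.27). Its signal was far lower, with an average of 7.60 over the 9 arrays against 13.02 for HSPA5. These intervals hold no change as large as that of SDF2L1 or DNAJB11.

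The disulphide isomerases and co-chaperones lay between. PDIA3, the isomerase that works with calnexin and calreticulin, read 11.88, 11.95 and 11.92 under PD325901, 11.97 and 11.90 under BB94 and 12.07, 12.10, 12.11 and 12.12 in controls. No PD325901 array reached any control array, yet the log2 change of -0.18 missed the threshold (adjusted p = 0.0689). PDIA6, another isomerase, changed by -0.22 on the probe set used (adjusted p = 0.0696), while its other 2 probe sets were called lower at -0.45 and -0.47. DNAJC3 (P58IPK), a co-chaperone of BiP, changed by -0.14 on the probe set used, and its other 2 probe sets were called lower at -0.57 and -0.37. PDIA6 and DNAJC3 are thus genes whose probe sets disagree on the call, though none went the other way. ERO1B, an oxidase that recharges the isomerases, changed by -0.18 (adjusted p = 0.116), CRELD2 by -0.08 and DNAJB9 (ERdj4) by -0.03. No ER folding gene was called higher.

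**Figure D2:**
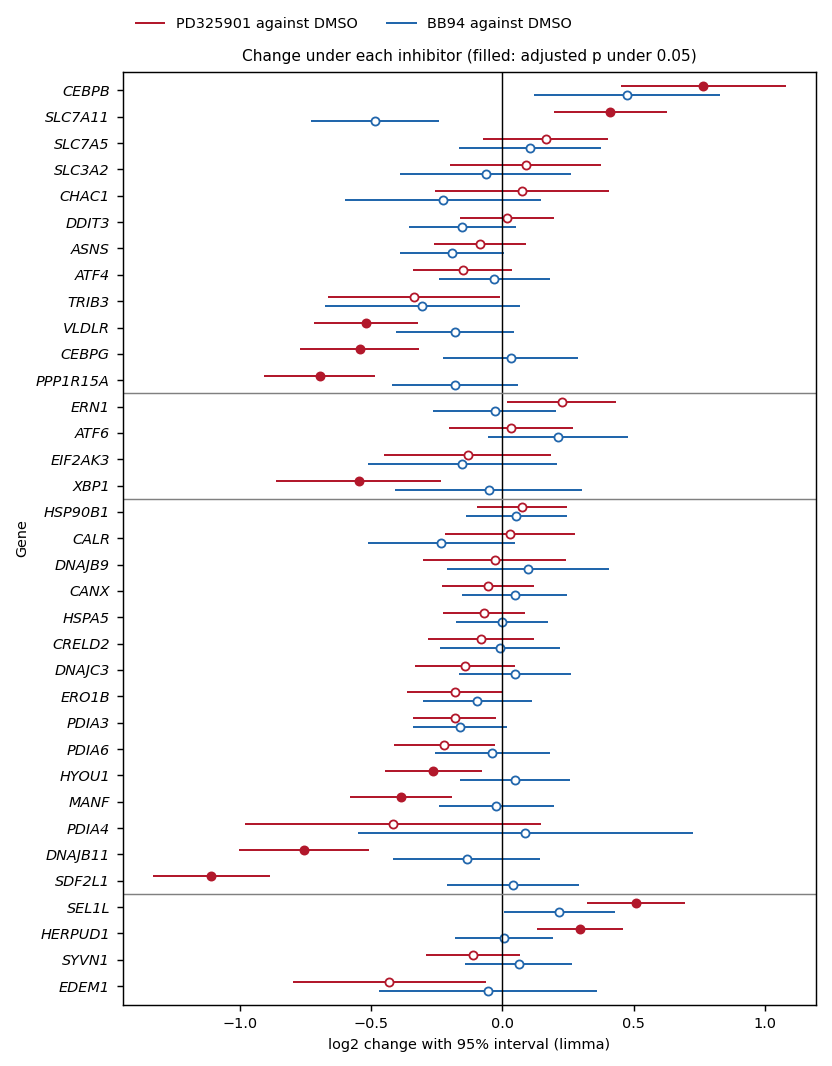
Points give each gene's log2 change against DMSO from limma and lines its 95% interval, in red for PD325901 and blue for BB94; filled points have an adjusted p under 0.05, and grey lines part the ATF4 arm, the sensors with XBP1, the folding genes and the ERAD genes from top to bottom. Of the 35 genes, 12 are filled in red and 0 in blue, and the 2 intervals of SLC7A11 lie on opposite sides of 0.

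Promoters were set beside these values. A window from 250 bases before to 50 bases after the RefSeq start (GRCh38.p14) was held for 33 of the 35 genes and searched on both strands for 4 short motifs. The ER stress element ERSE, spelled CCAAT, then 9 bases of any kind, then CCACG, which ATF6 binds together with NF-Y, stood in 7 of 14 folding gene windows and in XBP1, against 0.125% of the 14425 measured genes with a window. The folding genes with it were HSPA5, HSP90B1, CALR, CANX, PDIA6, CRELD2 and ERO1B. Of these, 0 were called under PD325901 on the probe sets used, where 35.1% of all genes were called. That count depended on the scale: HSPA5, CANX, PDIA6, CRELD2 and ERO1B were called lower after median centring, and PDIA6 and ERO1B with cyclic loess. Of all genes, 28% were lower after median centring and 17.7% with cyclic loess. ERSE-II, spelled ATTGG, then 1 base of any kind, then CCACG, stood in SDF2L1, HYOU1 and HERPUD1, against 0.111% of measured genes. All 3 were called on the deposited scale, SDF2L1 and HYOU1 lower and HERPUD1 higher, where 35.1% of all genes were called. After median centring HERPUD1 was not called (adjusted p = 0.737). The unfolded protein response element UPRE, TGACGTGG, stood in HYOU1, where it overlaps the first ERSE-II, against 1.11% of measured genes. A match describes the sequence and does not show that a factor binds there.

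The ERSE-II windows are shown because they belong to the folding gene with the largest fall, to a weaker one and to a gene that rose. Each is read 5′ to 3′ on the gene's strand, with the motif in capitals and 20 bases on either side. They lie at chr22:21642094-21642144 (plus strand) for SDF2L1, chr11:119057254-119057410 (minus strand) for HYOU1, whose stretch holds 2 matches, and chr16:56932005-56932055 (plus strand) for HERPUD1, in GRCh38.p14.
SDF2L1: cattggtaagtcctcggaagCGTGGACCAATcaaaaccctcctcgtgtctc
HYOU1: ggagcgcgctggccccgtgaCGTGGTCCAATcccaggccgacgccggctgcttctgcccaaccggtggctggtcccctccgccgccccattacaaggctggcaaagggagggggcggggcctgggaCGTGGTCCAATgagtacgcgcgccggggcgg
HERPUD1: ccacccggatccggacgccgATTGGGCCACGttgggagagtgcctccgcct

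On the deposited scale 2 abundant chaperones were not called and XBP1 was called lower. For contrast, their ERSE stretches follow with the whole element in capitals. They lie at chr9:125241371-125241429 (minus strand) for HSPA5, chr12:103930196-103930359 (plus strand) for HSP90B1, with 2 matches, and chr22:28800583-28800641 (minus strand) for XBP1, in GRCh38.p14.
HSPA5: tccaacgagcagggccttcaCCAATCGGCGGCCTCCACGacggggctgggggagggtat
HSP90B1: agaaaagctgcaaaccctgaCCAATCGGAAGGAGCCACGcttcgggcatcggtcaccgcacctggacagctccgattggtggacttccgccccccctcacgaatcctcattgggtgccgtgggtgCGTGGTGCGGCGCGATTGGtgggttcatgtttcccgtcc
XBP1: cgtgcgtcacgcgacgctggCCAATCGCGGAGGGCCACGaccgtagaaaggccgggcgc

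The 4 ERAD genes gave 2 higher and 0 lower calls under PD325901, where 22.8% of all genes were higher and 12.3% lower. After median centring they gave 0 higher and 2 lower, EDEM1 and SYVN1, where 13% of all genes were higher and 28% lower. SEL1L, the scaffold of the HRD1 ubiquitin ligase, read 12.55, 12.57 and 12.59 on PD325901 arrays, 12.26 and 12.30 on BB94 arrays and 12.19, 12.11, 12.02 and 11.93 on control arrays. The 3 groups were fully separated on this probe set, and SEL1L rose 1.42-fold under PD325901 (log2 change 0.51, SE 0.08, adjusted p = 6.39e-04). Of its other probe sets, 1 was called higher at 0.94, though it lay above background on 4 arrays only. Another, above background on all 9 arrays, changed by 0.20 with no call. HERPUD1, an ER membrane protein that joins the same ligase complex, read 10.62, 10.70 and 10.74 under PD325901, 10.41 and 10.38 under BB94 and 10.33, 10.43, 10.38 and 10.42 in controls. It rose 1.23-fold (log2 change 0.30, SE 0.07, adjusted p = 0.0086), and 2 of its other 3 probe sets were called higher as well. After median centring neither of these calls was made (adjusted p = 0.0606 for SEL1L and 0.737 for HERPUD1). SYVN1 (HRD1), the ligase itself, changed by -0.11 with an interval of -0.29 to 0.06. Its other probe set changed by 0.25, also with no call. EDEM1, which directs misfolded glycoproteins to degradation, read 10.57, 10.51 and 10.59 on PD325901 arrays against 11.35, 11.22, 10.78 and 10.59 on control arrays, a change of -0.43 that missed the threshold (adjusted p = 0.0655) but was called lower in 9 of 18 alternative settings. Of its other probe sets, 2 were called lower, at -0.29 and -0.58, the latter below background on all 9 arrays.

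Of the sensors and XBP1, XBP1 alone was called under PD325901. XBP1 RNA read 6.27, 6.36 and 6.61 on PD325901 arrays, 7.002 and 6.82 on BB94 arrays and 6.89, 6.997, 6.68 and 7.28 on control arrays. Its PD325901 arrays lay below the other 6, and with background reached on 2 of them the fall was at least 1.42-fold (log2 change -0.55, adjusted p = 0.0107). Without PD325901 replicate 1 the adjusted p was 0.0531. The spliced form of XBP1 was not analysed here. ATF6 changed by 0.03 (interval -0.20 to 0.27) and EIF2AK3 by -0.13 (interval -0.45 to 0.18). ERN1 lay below background on all 9 arrays, so no fold is given.

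The ATF4 arm gave 2 higher and 3 lower calls of 12 under PD325901 (41.7% called, against 35.1% of all genes), with a median change of -0.03. After median centring it gave 1 higher and 6 lower, where 13% of all genes were higher and 28% lower. Among its transcription factors, ATF4 itself read 13.43, 13.43 and 13.37 on PD325901 arrays, 13.51 and 13.55 on BB94 arrays and 13.41, 13.56, 13.61 and 13.67 on control arrays. The PD325901 and control arrays overlapped, and ATF4 changed by -0.15 under PD325901 (interval -0.34 to 0.03, adjusted p = 0.199). It was called lower after median centring (adjusted p = 0.00705) and with control replicates 3 and 4 only (adjusted p = 0.0321). DDIT3 (CHOP), the factor that ties long stress to cell death, lay below background on every array, between 5.45 and 5.80, and no fold is given for it.

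The C/EBP factors, which pair with ATF4 and CHOP on DNA, went opposite ways. CEBPB read 12.04, 12.03 and 12.17 on PD325901 arrays, 11.86 and 11.72 on BB94 arrays and 11.55, 11.49, 11.30 and 10.92 on control arrays. It rose 1.70-fold under PD325901 (log2 change 0.77, SE 0.14, adjusted p = 0.00139), with all 3 arrays above all others. CEBPG read 11.10, 11.18 and 11.12 on PD325901 arrays, 11.77 and 11.64 on BB94 arrays and 11.82, 11.78, 11.65 and 11.44 on control arrays. It fell 1.46-fold (log2 change -0.54, SE 0.10, adjusted p = 0.00155), and its second probe set was also called lower, with a log2 change of -1.09.

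Of PPP1R15A, TRIB3 and CHAC1, the first alone was called on the deposited scale. PPP1R15A (GADD34), which brings a phosphatase to eIF2 and so ends the response, read 7.58, 7.45 and 7.42 on PD325901 arrays, 8.03 and 7.96 on BB94 arrays and 8.03, 8.10, 8.34 and 8.22 on control arrays. It fell 1.62-fold (log2 change -0.70, SE 0.09, adjusted p = 1.75e-04), with no overlap. TRIB3, a pseudokinase induced by ATF4 that restrains it, changed by -0.34 (adjusted p = 0.104), with all 3 PD325901 arrays below all 4 control arrays. It was called lower in 3 of 18 alternative settings. Among them were median centring (adjusted p = 0.00188) and cyclic loess (adjusted p = 0.00521), where 28% and 17.7% of all genes were lower. The other TRIB3 probe set, above background on 4 arrays only, changed by 0.24 with no call. CHAC1, which degrades glutathione, lay below background on all 9 arrays.

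Amino acid genes, the best-known ATF4 targets, gave 1 call of 4 on the deposited scale, where 35.1% of all genes were called. SLC7A11 (xCT), the cystine importer, read 12.19, 12.29 and 12.35 on PD325901 arrays, 11.49 and 11.27 on BB94 arrays and 11.92, 11.92, 11.92 and 11.68 on control arrays. PD325901 arrays were highest and BB94 arrays lowest, with no overlap, and SLC7A11 rose 1.33-fold under PD325901 (log2 change 0.41, SE 0.10, adjusted p = 0.00612), a call that median centring ended (adjusted p = 0.217). Its second probe set was called higher at 0.41, and the third, above background on all 9 arrays, changed by -0.06 with no call. SLC3A2, the heavy chain that carries xCT and SLC7A5 to the surface, changed by 0.09 (interval -0.19 to 0.37). SLC7A5 (LAT1), the importer of large amino acids, changed by 0.16 (interval -0.07 to 0.40), and ASNS, asparagine synthetase, by -0.09 (interval -0.26 to 0.08). After median centring ASNS was called lower (adjusted p = 0.00647), where 28% of all genes were. VLDLR, a lipoprotein receptor known as a target of the PERK and ATF4 branch in mouse liver, read 6.70, 6.67 and 6.82 under PD325901, 7.10 and 7.04 under BB94 and 7.36, 7.21, 7.33 and 7.10 in controls. It fell 1.43-fold (log2 change -0.52, SE 0.09, adjusted p = 8.42e-04).

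The ATF4 and C/EBP composite element, CARE, was searched as TGATGNAA in the same windows. It stood in 4 of 11 windows of the ATF4 arm (ASNS, CEBPG, CHAC1 and SLC3A2) and in HERPUD1, against 3.62% of measured genes. Of these 5 genes, CEBPG fell and HERPUD1 rose under PD325901 on the deposited scale, where 35.1% of all genes were called. The other 3 were not called, and 1 of them, CHAC1, lay below background on all 9 arrays. After median centring ASNS was called lower (adjusted p = 0.00647), where 28% of all genes were, and HERPUD1 was not called (adjusted p = 0.737). The stretches of CEBPG and ASNS are shown with the element in capitals. On the deposited scale CEBPG was called and ASNS was not. They lie at chr19:33374051-33374098 (plus strand) and chr7:97872449-97872496 (minus strand), in GRCh38.p14.
CEBPG: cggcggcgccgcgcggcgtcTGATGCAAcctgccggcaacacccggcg
ASNS: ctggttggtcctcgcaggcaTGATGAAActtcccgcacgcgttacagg

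**Figure D3:**
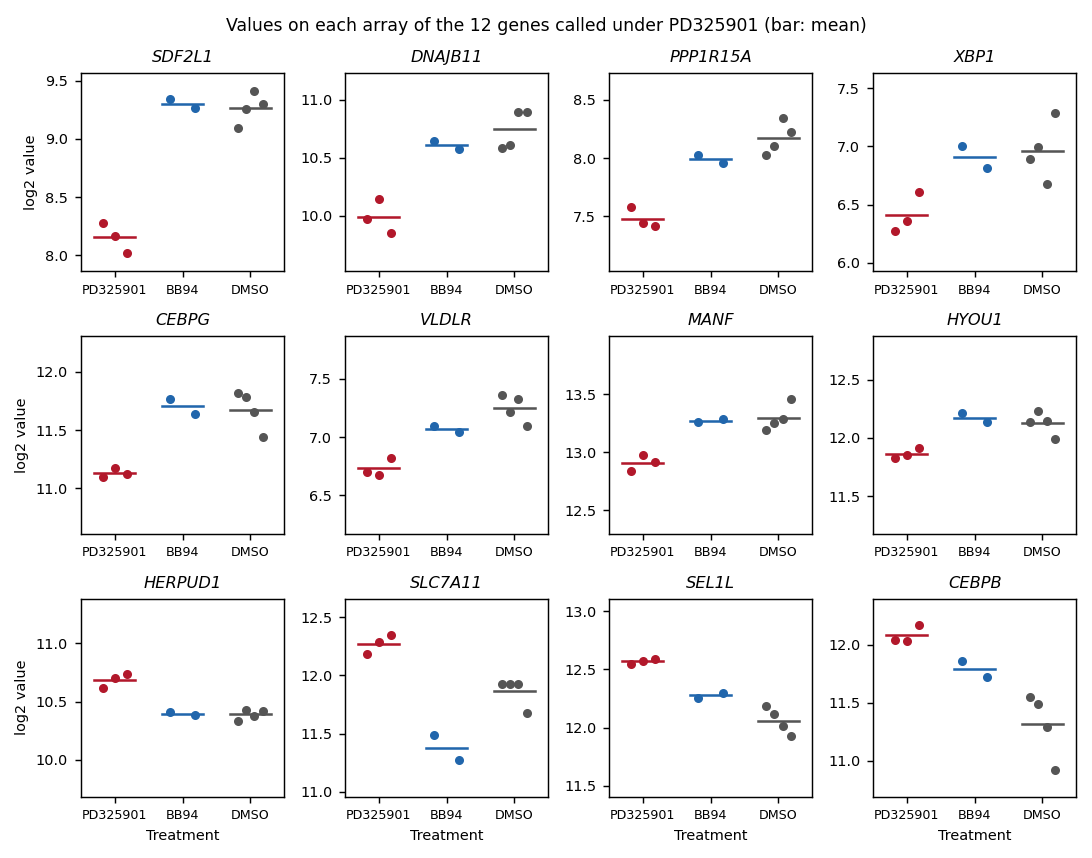
Log2 values of the 12 genes called under PD325901 are plotted for each array, with PD325901 in red, BB94 in blue and DMSO in grey; bars are group means. In each panel the 3 PD325901 points lie apart from the 4 DMSO points, and the BB94 points lie below all DMSO points in SLC7A11 and above them in CEBPB and SEL1L.

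BB94 was set against the same controls to ask whether blocking metalloproteinases touched the response. No gene of the 35 passed the adjusted threshold. Both BB94 arrays lay below all 4 control arrays for 5 of the 35, against 11% of all genes, and above them for 2 of the 35, against 6.35% of all genes. SLC7A11 came closest: BB94 against control gave a log2 change of -0.48 (SE 0.11, adjusted p = 0.062), with both BB94 arrays below all 4 control arrays. Its other 2 probe sets gave log2 changes of -1.31 and -0.45, the first called (adjusted p = 5.87e-04 over all probe sets), with means of 9.05 in BB94 cultures and 10.36 in control cultures. SLC7A11 passed the threshold in 7 of 17 alternative settings, among them the mean of its probe sets, where the adjusted p was 0.00145. CEBPB changed by 0.47 under BB94 (adjusted p = 0.26) and SEL1L by 0.22 (adjusted p = 0.431), both with unadjusted p under 0.05. The second SEL1L probe set changed by -0.25 under BB94 with no call, and the others by 0.07 and 0.27. The ER folding and ERAD genes together had a median change of 0.01 under BB94, and the ATF4 arm one of -0.17, against -0.02 over all genes. Probe sets of the folding gene DNAJC3 differed: the second changed by -0.75 under BB94 (adjusted p = 0.0578 over all probe sets). The DNAJC3 probe set used changed by 0.05 and the third by 0.003. On single arrays the ATF4 arm's median lay -0.07 and -0.18 from the control mean.

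The inhibitors were also compared directly, because both comparisons above share the control arrays. PD325901 against BB94 called 11 of the 35 genes (31.4%), where 31.2% of all genes were called, with 3 higher (21% of all genes) and 8 lower (10.2% of all genes). All PD325901 arrays lay below both BB94 arrays for 20 of the 35, against 20.1% of all genes, and above them for 7, against 40.7% of all genes. SLC7A11 gave the clearest higher call, at 1.86-fold (log2 change 0.89, SE 0.11, adjusted p = 1.5e-04), ahead of HERPUD1 and SEL1L. SDF2L1 was 2.22-fold lower (log2 change -1.15, SE 0.12, adjusted p = 3.4e-05), and the other 7 lower genes were DNAJB11, MANF, HYOU1, XBP1, CEBPG, PPP1R15A and VLDLR. CEBPB did not differ between the inhibitors by the test (log2 change 0.29, adjusted p = 0.233). Fewer calls were made when an array was left out: 5 without either BB94 array, 7 without PD325901 replicate 1 and 6 without PD325901 replicate 2. Calls over all genes fell too, from 5652 to 4382 and 3800 without BB94 replicates 1 and 2. They numbered 4760 and 4711 without PD325901 replicates 1 and 2. After median centring HERPUD1 and SEL1L were no longer higher (log2 changes -0.038 and -0.035).

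**Figure D4:**
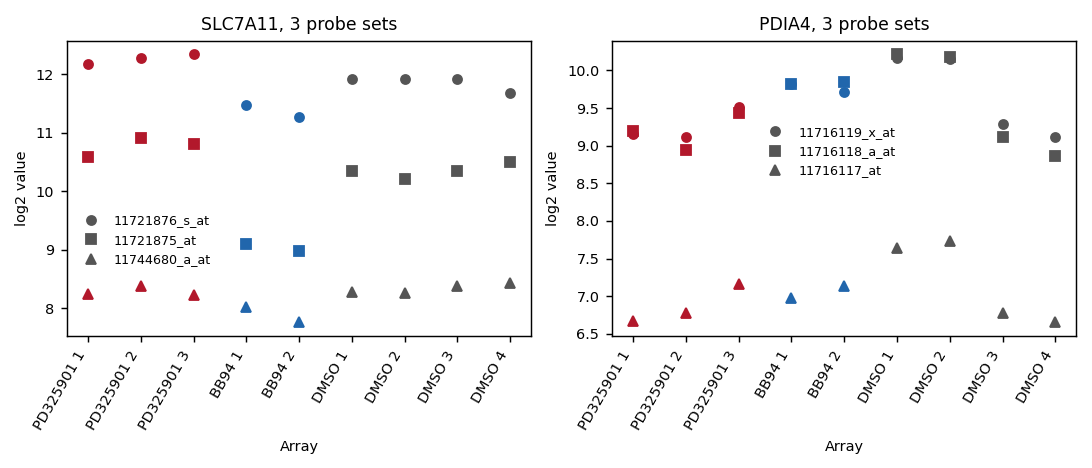
Log2 values on each of the 9 arrays (PD325901 left, BB94 middle, DMSO right) are drawn for the separate probe sets of SLC7A11 in one panel and of PDIA4 in the other. The 3 SLC7A11 probe sets are lowest on the BB94 arrays, and the 3 PDIA4 probe sets are high in DMSO replicates 1 and 2 and low in replicates 3 and 4.

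The controls themselves were divided for some of these genes. PDIA4, a disulphide isomerase, read 10.16 and 10.16 in control replicates 1 and 2 and 9.29 and 9.11 in replicates 3 and 4, and its control SD of 0.56 lay at the 99.5th percentile of all genes. PD325901 arrays read 9.16, 9.11 and 9.51, near control replicates 3 and 4, and BB94 arrays read 9.82 and 9.71, between the control pairs. Against control replicates 1 and 2, PDIA4 was called lower under PD325901 (adjusted p = 7.76e-04). Against all 4 controls it was not (log2 change -0.42, adjusted p = 0.249), except with array weights (adjusted p = 0.00611) or median centring (adjusted p = 0.0468). EDEM1 differed by -0.60 and EIF2AK3 by -0.44 between control replicates 3 and 4 and replicates 1 and 2, CEBPB by -0.41, DNAJB9 by -0.38 and SLC3A2 by 0.40. With control replicates 3 and 4 as the only controls, BB94 called 3 of the 35 genes, CEBPB, ATF6 and PDIA4, all higher, and 1633 of all 18132 genes in either direction, so the share of the list is near that of all genes. The ACTB difference was 3.89 and 3.75 in control replicates 1 and 2 and 3.46 and 2.96 in replicates 3 and 4, and its part in this division was not tested.

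Beyond the 35 genes, neighbouring pathways were read from wider lists. Under PD325901 the translocon and glycosylation genes, which carry proteins into the ER and add sugars, gave 0 higher and 6 lower calls of 18 (33.3% called, against 35.1% of all genes), led by SSR3 (log2 change -0.57, adjusted p = 1.72e-04), SPCS2 (-0.56) and RPN1 (-0.43). Other ERAD genes gave 3 higher and 3 lower of 18 (33.3% called). The 3 higher were EDEM2, a relative of EDEM1, MAN1B1 and the lectin OS9, at 0.87, 0.73 and 0.57. Other ER folding enzymes gave 2 higher and 2 lower of 16 (25% called), including the BiP co-chaperone DNAJC1 at 0.82, FKBP11 at -0.49 and CDNF, which lay below background in both groups. After median centring the translocon and glycosylation genes gave 0 higher and 12 lower. Other ERAD genes then gave 3 higher and 12 lower, and other folding enzymes 1 higher and 7 lower. Of all genes 13% were higher and 28% lower on that scale.

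The ER-tethered transcription factors and the proteases that release them, relatives of ATF6, gave 5 higher and 0 lower of 7 (71.4% called). Of all genes 35.1% were called, with 22.8% higher and 12.3% lower. CREB3L1 (OASIS) averaged 12.39 ± 0.02 in PD325901 cultures against 10.74 ± 0.22 in control cultures (SD, n = 3 and 4) and rose 3.15-fold (adjusted p = 1.46e-06). CREB3L4 rose 1.94-fold and MBTPS1, the site-1 protease that cuts ATF6, 1.48-fold. After median centring 3 of these 5 genes were called, all higher, where 13% of all genes were higher. The median change of the list was then 0.23 in place of 0.48.

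The wider amino acid list gave 2 higher and 5 lower of 15 under PD325901 (46.7% called), and the tRNA synthetases 0 higher and 4 lower of 12 (33.3% called), against 35.1% of all genes. SLC1A5, the glutamine importer, averaged 8.79 ± 0.20 in PD325901 cultures against 9.96 ± 0.26 in control cultures and fell 2.25-fold (adjusted p = 1.09e-04). MTHFD2, a mitochondrial folate enzyme, fell 1.70-fold and CTH, which makes cysteine, rose 1.79-fold. YARS1, GARS1 and IARS1 had log2 changes of -0.61, -0.40 and -0.29. The eIF2 list gave 0 higher and 2 lower of 12 (16.7% called), EIF2B2 at -0.62 and EIF2S2 at -0.35. After median centring the eIF2 list gave 0 higher and 8 lower. The amino acid list then gave 1 higher and 6 lower, and the tRNA synthetases 0 higher and 6 lower. Of all genes 13% were higher and 28% lower on that scale.

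Other ATF4-pathway genes gave 3 higher and 2 lower of 12 under PD325901 (41.7% called). NUPR1, a stress-induced nuclear protein, rose at least 4.63-fold, DDIT4 (REDD1), a brake on mTORC1, rose 13.9-fold and VEGFA fell 1.93-fold. This list alone of the wider ones had calls under BB94, 1 higher and 2 lower of 12 (25% called, against 1.58% of all genes). DDIT4 rose 2.58-fold (adjusted p = 2.05e-04), GDF15 fell 1.76-fold (adjusted p = 0.00903) and ATF5 fell 1.41-fold (adjusted p = 0.0398, or 0.124 after median centring). GDF15 went the other way under PD325901 (log2 change 0.82, adjusted p = 1.83e-04). DDIT4 averaged 11.74 ± 0.08 in PD325901 cultures, 9.31 ± 0.11 in BB94 cultures and 7.94 ± 0.15 in control cultures. PD325901 also lowered 6 of 12 measured cytosolic and mitochondrial heat shock genes and raised 0 (50% called, against 35.1% of all genes). After median centring 10 of the 12 were called lower and 0 higher, where 28% of all genes were lower and 13% higher. HSPA4L, BAG3 and HSPA8, named after their values were seen, had log2 changes of -0.53, -0.45 and -0.34.

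**Figure D5:**
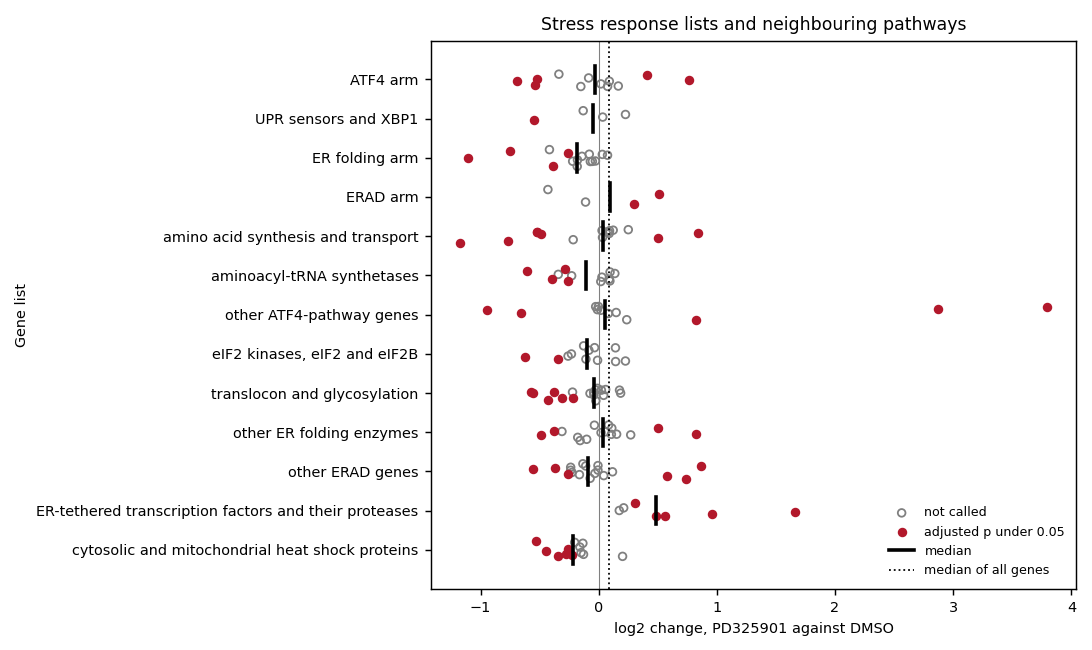
For the 4 arms and the neighbouring pathways, points give the log2 change of every measured member under PD325901 against DMSO and the bar the median, with filled points for an adjusted p under 0.05 and a dotted line at the median of all genes, 0.08. Of the 13 lists drawn, the ER-tethered transcription factors have the highest median, at 0.48, and the heat shock genes the lowest, at -0.22.

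The scale mattered to the balance of calls. PD325901 shifted the median of all genes by 0.08 in the deposited values and by -0.17 after each array was centred on its median over genes, and the calls over all genes changed from 22.8% higher and 12.3% lower to 13% higher and 28% lower. After that centring 1 of the 35 genes, CEBPB, was called higher and 22 lower. Cyclic loess put the all-gene median at -0.01, with 4 of the 35 higher and 13 lower, where 19.1% of all genes were higher and 17.7% lower. PPP1R15A, CEBPG, VLDLR, DNAJB11, SDF2L1 and MANF lower, and CEBPB higher, were called under PD325901 in all 18 alternative settings run.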

How the data were processed

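RNA of 9 MDA-MB231 cultures was measured on PrimeView arrays, 1 per culture. The deposited log2 values are RMA summaries that the authors computed with affy, an R package named in the series design text, and the submitters' processing notes name RMA too; RMA corrects background, normalizes arrays by quantiles and summarises probes. They were used unscaled. Of 49395 probe sets, 102 were controls and 44988 carried 1 gene symbol; each of 18132 genes was read from its probe set with the highest mean. Background was each array's highest of 23 background probe sets (6.02 to 6.50), and genes below it on an array of the dimmer group have a fold bound only. Arrays have no read depth, so their number limits precision.

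Group differences were fitted in limma 3.58.1 under R 4.3.3 (lmFit and eBayes, 1 coefficient per group, all 9 arrays, 6 residual degrees of freedom, two-sided, Benjamini-Hochberg over all 18132 genes), with calls at an adjusted p under 0.05. The fit was tested on simulated data. Replicates are called biological by the labels. Promoter windows and motifs came from RefSeq (GRCh38.p14), with 33 of 35 genes matched.

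The 35 genes, the wider lists and the tests were chosen with earlier results of these data known. Beyond the 35, the text names the 3 called genes with the largest change per wider list and inhibitor, DUSP6, SPRY4 and ETV5, and VIM, CD44, AXL, ESR1 and PTPRC; other names were chosen after their values were seen. CBS, GPT2, SEC61G, TXNDC5 and HSPA1A were among the wider genes not analysed here. Alternatives were other probe set rules, filters, scalings, weights, samples left out and a replicate block.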

Additional observations from a re-analysis of the deposited data

Results flagged for a closer look

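Of 35 outlier tests on the 4 control arrays, 2 passed Dixon's 95% critical value, where chance gives about 1 in 20. SLC7A11 read 11.68 in control replicate 4, while the other 3 control arrays held exactly the same value, 11.92, which by itself makes the gap equal to the whole range. Exact ties between arrays occur in these RMA values. The other 2 SLC7A11 probe sets were not low in control replicate 4: they read 10.50 and 8.43 there, the highest of the 4 control arrays. SLC7A5 read 10.58 in control replicate 4, against 10.92 to 10.96 in the other 3. Without control replicate 4, SLC7A11 passed the threshold under BB94 (adjusted p = 0.0316).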

How the results depend on the processing

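Calls under PD325901 numbered 10 to 19 of 35, or 23 after median centring, against 12 as reported: 19 with array weights, 19 with control replicates 1 and 2 only, 13 with the replicate block and 10 to 13 with any 1 array left out. Calls over all genes moved too, from 6365 as reported to 7429 after centring and 8171 with array weights. They numbered 6696 with control replicates 1 and 2, 5950 with the replicate block and 5214 to 7446 with 1 array left out. The median change of the ER folding and ERAD genes was -0.40 after centring, -0.22 with control replicates 1 and 2 and -0.092 with replicates 3 and 4. That of the ATF4 arm was -0.12 with only genes of mean at least 6, -0.29 after centring, -0.11 with cyclic loess and -0.11 with control replicates 3 and 4. BB94 called 1 of 35, SLC7A11, with the mean of probe sets, the mean filter, trend and robust fitting, array weights, cyclic loess and control replicates 1 and 2, and 3 with control replicates 3 and 4. Over all genes the settings named gave 267 to 469 calls, or 1633 with control replicates 3 and 4. Leaving out 1 array gave 0 to 1 of the 35. After centring the BB94 medians were 0.079 for the ER folding and ERAD genes and -0.094 for the ATF4 arm, which ran from -0.18 to -0.068 when a BB94 array was left out. PD325901 against BB94 called 23 after centring (7015 over all genes) and 5 to 8 with 1 array left out (3800 to 4846 over all genes). In that comparison centring turned HSP90B1 to -0.31, HERPUD1 to -0.038 and SEL1L to -0.035. The cause was not tested, except that centring lowers every PD325901 change by construction. Same-numbered arrays correlated at -0.186 to 0.122 in their deviations from group means. With few pairs, and with deviations of 2 BB94 arrays that mirror each other, this cannot decide whether the numbers pair the samples. The replicate block called 0 under BB94 and 9 in the direct comparison. Small groups limit precision, and DDIT3, CHAC1 and ERN1 lay below background.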
